A study of Mus musculus with 18 samples.

Results

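The step from S0-Medium to S1 was followed in nascent RNA from mouse fetal liver erythroid progenitors, with 3 libraries of each population, 6 of the 18 libraries of the series. The comparison takes every gene of the deposited count table, which lists 54232 gene identifiers, of which 16555 had enough counts to be tested. Cells were isolated from e12.5 to e13.5 fetal livers of C57BL/6 mice, depleted of Ter119-positive cells with magnetic beads, sorted as lineage-negative (Lin-) cells by their surface CD71 and Ter119, rested in culture medium for 6 h, and given 500 µM 4-thiouridine (4sU) for 45 min, so that only RNA made in that window carried the label and was purified for sequencing. S0-Medium cells are Lin-, Ter119- and stain at a medium level for CD71, and S1 cells are Lin-, Ter119- and stain at a high level for it. Both gates hold wild-type cells with no treatment between them, and the gates differ only in CD71. The labels do not say whether the 3 libraries of a population came from separate animals or pools, so that p-values here measure only the spread between these libraries.

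Red cells form from stem and progenitor cells that pass through an erythropoietin-independent phase of expansion and then, under erythropoietin, enter a terminal programme in which they make heme, globin and a specialised membrane skeleton while they continue to divide. CD71 is the transferrin receptor, encoded by Tfrc, and brings iron into the cell for heme synthesis. The transcription factor GATA2 is known for maintaining stem and progenitor cells and is replaced by GATA1 as erythroid cells mature, a change often called the GATA switch.

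Library totals spanned 28384407 to 39515260 estimated counts in S0-Medium and 27734246 to 40567976 in S1. Replicate 3 was the smallest library of both populations. In S1 it stood apart, its counts giving a chi-square of 355 and 322 per gene compared with replicates 1 and 2, which gave 84.4 with each other. In S0-Medium the 3 pairs of replicates gave 220, 244 and 296. In both populations replicate 3 held higher levels of several erythroid genes, described below. S0-Medium replicate 1 held the highest levels of many progenitor and leukocyte genes. Mitochondrially encoded genes took 3.12%, 4.43% and 6.21% of counts in S0-Medium replicates 1 to 3 and 6.95%, 6.39% and 6.03% in S1 (two-sided exact permutation test, p = 0.2). The 50 largest genes of each library took 9.44%, 11.6% and 11.7% in S0-Medium and 14.6%, 13.9% and 12.6% in S1, with no overlap (exact permutation p = 0.1, the smallest p that 3 against 3 libraries allow). In bulk samples such as these, fewer cells of a type and less RNA per cell cannot be told apart.

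The 2 marker genes of the step, Tfrc and Gata2, both separated the populations. Tfrc (chromosome 16, 32608896 to 32632794 of GRCm38) held 15855, 23275 and 20684 normalised counts in S0-Medium replicates 1 to 3 and 50679, 44416 and 59504 in S1. All 3 S1 libraries lay above all 3 S0-Medium libraries. The log2 difference, S1 minus S0-Medium, was 1.37 ± 0.31 (SE) in the fit without the replicate number as a block. Its adjusted p in edgeR's quasi-likelihood test was 0.184 without that block and 0.0318 with it. Because the cells were sorted on the protein that Tfrc encodes, this is a check of the gates and not a finding. Gata2 (chromosome 6, 88193891 to 88207032) held 5310.4, 3531 and 2464 normalised counts in S0-Medium and 397, 510.0 and 257 in S1. Every S1 library lay far below every S0-Medium library, yet the log2 difference of -3.28 ± 1.11 did not pass either edgeR test (adjusted p = 0.45 without the block and 0.132 with it). The labels call both populations primary erythroblasts, and Gata1, Klf1 and Epor, which mark erythroid cells, were detected in all 6 libraries, the lowest of their values being 1811 normalised counts, for Epor in S0-Medium replicate 1.

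How many genes could be told apart depended on whether libraries of the same replicate number were matched. In the edgeR fit over all 15 erythroid libraries without a block, 0 of 16555 genes passed an adjusted p of 0.05 (0%), and the smallest adjusted p was 0.0639. At an unadjusted p of 0.05, 278 genes were higher in S1 (1.68%) and 857 were lower (5.18%), and DESeq2 without a block called 33 higher and 368 lower after adjustment. Same-numbered S1 and S0-Medium libraries deviated together from their population means, and with the replicate number as a block edgeR called 28 genes higher (0.169%) and 29 lower (0.175%) in S1. These 57 genes are the ones said below to have risen or fallen, and a gene said not to pass did not pass edgeR's test with the block. The log2 differences and SE printed for single genes are those of the fit without the block. This holds also where the adjusted p beside them is from the fit with it, so that such an SE is not the error behind that p. All 57 moved in the same direction in 3 of 3 replicate pairs. The calls rest on few libraries, since leaving S1 replicate 3 out of the blocked fit left 0 genes and leaving S1 replicate 1 out left 1 higher and 0 lower, while leaving out any one of the other 4 libraries left between 1 and 9 higher and between 5 and 16 lower.

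Counted without a model, more genes were lower in S1 than higher. All 3 S1 libraries lay above all 3 S0-Medium libraries for 1136 of the 16555 genes (6.86%) and below them for 1688 (10.2%), and with libraries scaled by their totals alone these became 583 and 2250. The median log2 difference over all tested genes was -0.02, and -0.12 and -0.17 under the other scalings tried, a shift of -0.10 and -0.15. Among 10779 genes with a mean of at least 100 normalised counts in either population, 67 were at least 4-fold higher in S1 by their means and 546 at least 4-fold lower. The 28 rises ranged from 1.00 to 3.47 on the log2 scale (median 1.66) and the 29 falls had a median of -4.72. Of the falls, 2 had no count in any S1 library, so that their fitted values are not used, and the other 27 ranged from -7.62 to -2.31. With the 2 set at their bound the median was -4.72.

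**Figure D1:**
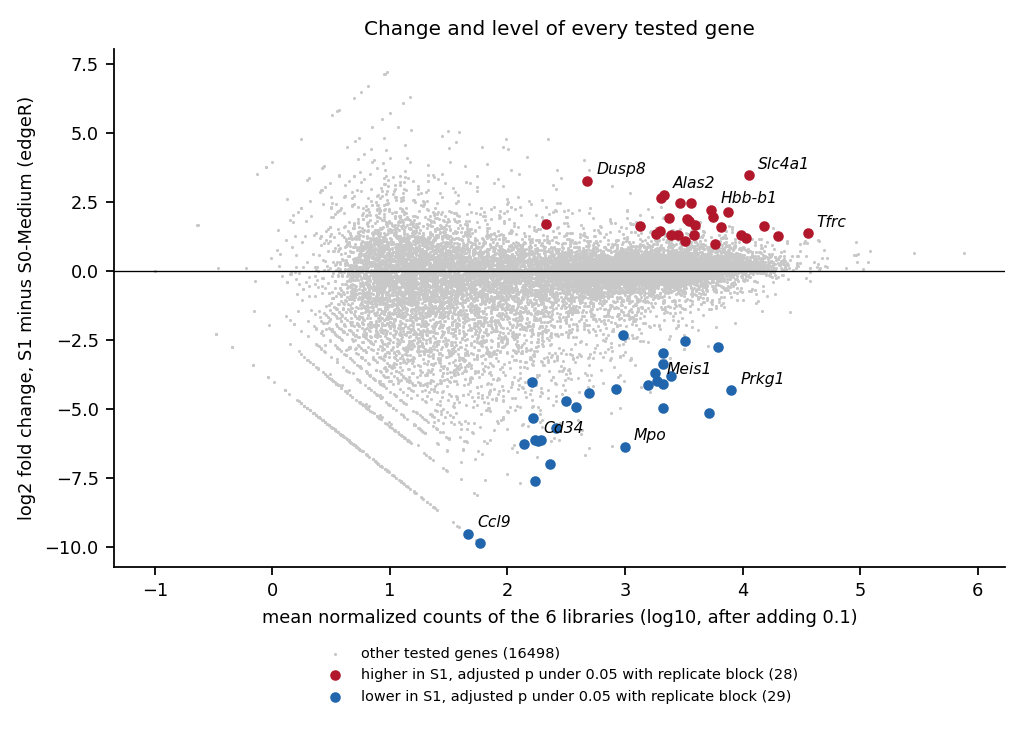
Mean normalised counts of each tested gene over the 6 libraries (log axis) against its log2 difference, S1 minus S0-Medium, with the 28 genes that rose and the 29 that fell under the replicate block coloured. The falls with counts in S1 reach -7.62 while no rise exceeds 3.47.

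Of the 28 genes that rose, 11 are on the lists of heme synthesis, iron, globin, membrane skeleton and red cell surface genes, which hold 78 of the 16555 tested genes (0.471%) and were chosen with earlier results known. They include Alas2 and Fech of heme synthesis, Slc25a37 that imports iron into mitochondria, Tfrc, the adult globin gene Hbb-b1, the membrane skeleton genes Epb42 and Dmtn, and the surface proteins Slc4a1 and Kel. Alas2, the erythroid form of the first and rate-limiting enzyme of heme synthesis, held 528, 513 and 599 normalised counts in S0-Medium and 2205, 2671 and 6349 in S1. The groups were well apart, with S1 replicate 3 the highest. Its log2 difference was 2.77 ± 0.47 and its adjusted p, 0.00964 with the block, was the smallest of all genes tested (0.0639 without it). Slc4a1, the anion exchanger band 3 that anchors the skeleton to the membrane, held 2014, 1458 and 2217 in S0-Medium and 9054, 9021 and 44979 in S1, the largest of the 28 rises at 3.47 ± 0.69 (adjusted p = 0.0196 with the block). S1 replicate 3 was again several times higher than the other S1 libraries.

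**Figure D2:**
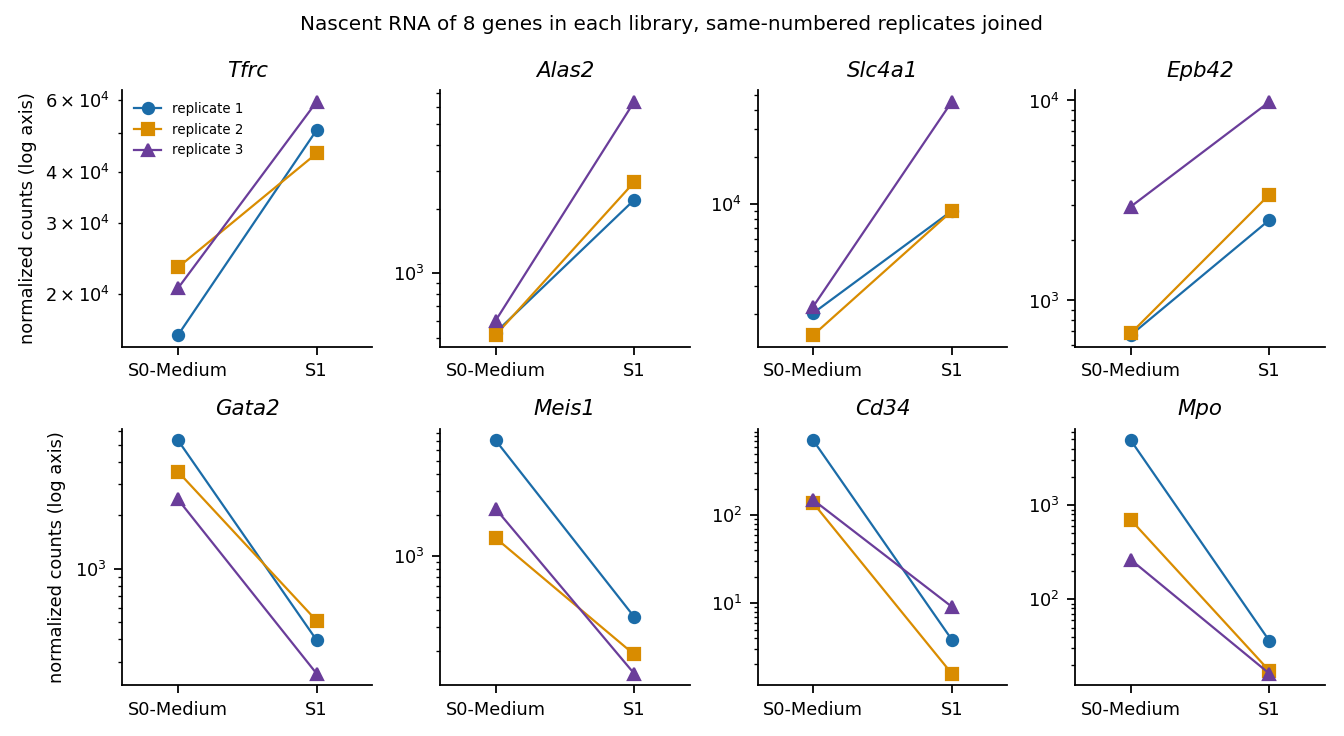
Normalised counts (log axis) of selected genes in the 3 S0-Medium and the 3 S1 libraries, 1 point a library, with lines joining libraries of the same replicate number. Alas2 and Slc4a1 sit higher in every S1 library, Meis1 and Cd34 lower in every S1 library, and Epb42 is higher in S1 within each pair although the groups overlap.

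The 250 bases before the annotated start were read for the genes that rose and fell, from RefSeq on GRCm38.p6, as the sequence nearest to where nascent transcription begins. Of the 28 genes that rose, 18 had such a sequence, and 6 of those (33.3%) held AGATAA or its reverse complement TTATCT, 1 form of the letters that GATA factors bind. Among the 29 that fell, 25 had one and 7 of them (28%) held these letters, against 816 of 10733 tested genes with such a sequence (7.6%). Over all genes with such a sequence, tested or not, they occurred in 3090 of 27018 (11.4%), and in 9.99% of all 32841 windows. A gene with several annotated starts has several such windows, so that more sequence was searched for some genes, and counted by window the shares were 22.2% of 27 for the rises, 15.6% of 45 for the falls and 6.3% of 13705 for tested genes. The letters CACACCC or GGGTGTG, bound by KLF factors, occurred in 2 of 18 (11.1%) and 4 of 25 (16%), against 8.79% of tested genes (11.1%, 8.89% and 7.3% by window). AGGAAGT or ACTTCCT, bound by ETS factors, occurred in 1 of 18 (5.56%) and 5 of 25 (20.0%), against 8.43% (3.7%, 13.3% and 7.03% by window). Both strands were searched for these exact letters only. A gene without a match may therefore hold another form that the same factors bind. A match is a description of letters, not of a bound site. Printed here are 4 genes that rose and hold AGATAA or TTATCT, Alas2 (chrX:150547167-150547416, plus strand), Epb42 (chr2:121036878-121037127, minus strand), Kel (chr6:41704326-41704575, minus strand) and Trim10 (chr17:36869324-36869573, plus strand), and 2 that fell, Plcg2 (chr8:117498025-117498274, plus strand) and Mpo (chr11:87793534-87793783, plus strand), the latter with an ETS match instead. They are given 5′ to 3′ on the strand of the gene, with every match to any of the 3 motifs in capitals and no overlap between matches.
Alas2: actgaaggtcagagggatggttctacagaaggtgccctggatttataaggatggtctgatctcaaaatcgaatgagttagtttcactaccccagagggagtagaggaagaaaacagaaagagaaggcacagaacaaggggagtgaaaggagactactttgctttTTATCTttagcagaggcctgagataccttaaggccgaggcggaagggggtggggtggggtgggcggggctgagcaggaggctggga
Epb42: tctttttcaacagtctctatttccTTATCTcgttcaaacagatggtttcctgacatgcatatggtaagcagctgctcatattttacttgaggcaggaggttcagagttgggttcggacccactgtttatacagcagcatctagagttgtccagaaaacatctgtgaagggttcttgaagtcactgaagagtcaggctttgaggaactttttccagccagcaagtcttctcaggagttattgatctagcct
Kel: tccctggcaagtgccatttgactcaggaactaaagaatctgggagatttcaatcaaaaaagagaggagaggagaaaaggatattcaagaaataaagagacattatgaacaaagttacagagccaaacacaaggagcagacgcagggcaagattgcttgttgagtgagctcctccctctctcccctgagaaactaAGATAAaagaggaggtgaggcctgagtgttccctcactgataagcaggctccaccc
Trim10: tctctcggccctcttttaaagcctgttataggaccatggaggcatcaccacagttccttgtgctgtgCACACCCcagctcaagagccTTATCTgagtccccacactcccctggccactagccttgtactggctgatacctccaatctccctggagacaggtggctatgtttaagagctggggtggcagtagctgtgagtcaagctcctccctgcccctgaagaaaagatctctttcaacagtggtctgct
Plcg2: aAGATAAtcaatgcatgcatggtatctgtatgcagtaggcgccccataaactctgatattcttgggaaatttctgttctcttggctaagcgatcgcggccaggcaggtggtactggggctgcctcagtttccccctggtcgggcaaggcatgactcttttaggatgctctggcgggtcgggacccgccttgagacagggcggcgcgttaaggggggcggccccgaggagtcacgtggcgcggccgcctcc
Mpo: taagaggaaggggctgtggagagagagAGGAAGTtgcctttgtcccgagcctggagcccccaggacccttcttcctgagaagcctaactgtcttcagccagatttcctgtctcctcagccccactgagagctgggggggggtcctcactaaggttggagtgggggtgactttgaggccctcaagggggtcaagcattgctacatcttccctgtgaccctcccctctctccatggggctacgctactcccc

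Of 10 enzymes and regulators of heme synthesis tested, 2 rose under the block and 0 fell against 0.169% and 0.175% of all tested genes, 4 were higher without overlap and 0 lower against 6.86% and 10.2%, and the median log2 difference was 1.08 against -0.02 over all tested genes. Fech, which inserts iron into the porphyrin ring, held 5761, 6069 and 7779.7 in S0-Medium and 11310.2, 12119.7 and 21468 in S1 (1.20 ± 0.36, adjusted p = 0.0387 with the block). Cpox and Ppox, which act just before it, had log2 differences of 1.02 ± 0.29 and 1.33 ± 0.49 without overlap but did not pass (adjusted p = 0.0776 and 0.194 with the block). Uros, Urod and Alad, enzymes of cytosolic steps, were higher within each pair, at 1.37, 0.93 and 0.82, while their groups overlapped through S0-Medium replicate 3. Alas1, the housekeeping counterpart of Alas2, held 903, 1118 and 1254 in S0-Medium and 842, 1008 and 934 in S1, a log2 difference of -0.23 ± 0.94.

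Among genes that carry iron, Slc25a37 and Tfrc rose. Slc25a37, mitoferrin 1, which brings iron into mitochondria of erythroid cells, held 2475, 2717 and 3048 in S0-Medium and 7045, 6955 and 22581 in S1 (2.15 ± 0.53, adjusted p = 0.0387 with the block). It was the 1 rise (background 0.169%) and the 1 gene higher without overlap (11.1%, background 6.86%) among 9 tested genes of mitochondrial heme and iron transport, whose median was 0.69, and its widely expressed relative Slc25a28 was at -0.28 ± 0.42. Abcb10, a mitochondrial transporter needed for heme synthesis, was at 1.53 ± 0.57 (adjusted p = 0.124 with the block). Of 16 tested genes of iron uptake, storage and export, Tfrc, whose protein the cells were sorted on, was the 1 that rose, 0 fell against a background of 0.169% and 0.175%, 2 were higher without overlap against 6.86%, and the median was 0.30. Fth1, the ferritin heavy chain, held 8344, 16858 and 15827 in S0-Medium and 25453, 23817 and 21742 in S1, higher without overlap but not past the test (0.79 ± 0.30, adjusted p = 0.221 with the block). The second transferrin receptor Tfr2, at 0.18 ± 0.37, and the iron-responsive regulator Ireb2, at 0.13 ± 0.31, differed by less than their errors.

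Of the globin genes, Hbb-b1 rose, from a low share of all counts. The list entries Hbb-bs, Hbb-bt and Ahsp could not be matched to an identifier, so they have no value here and are not in that share. The 7 tested globin genes together took 0.00704%, 0.0129% and 0.0503% of counts in S0-Medium replicates 1 to 3 and 0.0383%, 0.0453% and 0.140% in S1 (exact permutation p = 0.3). The share was higher in S1 within each pair, but S0-Medium replicate 3 lay above S1 replicates 1 and 2. Hbb-b1, an adult beta-globin gene, held 571, 1265 and 3879.7 normalised counts in S0-Medium and 4086, 5251 and 17522 in S1 and was the 1 globin gene that rose, against 0.169% of all tested genes (2.23 ± 0.74, adjusted p = 0.0282 with the block). The adult alpha-globin genes Hba-a1 and Hba-a2 were at 1.55 ± 0.69 and 2.04 ± 0.65 and did not pass (adjusted p = 0.118 and 0.0776 with the block). Hba-a1 and Hba-a2, like Hbb-b1 and Hbb-b2, are near-identical copies, so that reads could be split between them and single-gene values are uncertain. The embryonic genes Hbb-y and Hbb-bh1 held at most 49.5 and 413 normalised counts in any of the 6 libraries, and they too were higher in S1 within each pair, at 2.00 ± 1.23 and 1.38 ± 1.43, without passing. The median log2 difference of the 7 genes was 2.00, and 2 of them were higher without overlap against 6.86% of all tested genes.

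The membrane skeleton is the spectrin network beneath the red cell membrane. Of its 14 tested genes, 3 rose and 0 fell against a background of 0.169% and 0.175%, 7 were higher without overlap against 6.86%, and the median was 0.99. Dmtn, which bundles actin at the skeleton's junctions, held 988, 862 and 1528 in S0-Medium and 3084, 3135 and 12307 in S1 (2.46 ± 0.66, adjusted p = 0.0156 with the block). Epb42, protein 4.2, which ties band 3 to ankyrin, held 671, 685 and 2944 in S0-Medium and 2526, 3384 and 9847 in S1. Its groups overlapped through S0-Medium replicate 3, yet S1 exceeded S0-Medium 3.77, 4.94 and 3.34 times in pairs 1 to 3 and it passed with the block (1.87 ± 0.71, adjusted p = 0.0137). Sptb, Ank1, Add2 and Mpp1, encoding beta-spectrin, ankyrin, beta-adducin and the palmitoylated protein p55, were higher without overlap at 1.10, 1.03, 0.96 and 1.22 and did not pass. Add3, the adducin of most other tissues, was at -0.42 ± 0.30, and Tmod3, the tropomodulin found outside red cells too, at 0.04 ± 0.28.

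Among 22 tested red cell surface and transport proteins 3 rose and 0 fell against a background of 0.169% and 0.175%, 9 were higher and 1 was lower without overlap against 6.86% and 10.2%, and the median was 0.76. Kel, the Kell blood group protease, held 4330.3, 5895 and 6310.4 in S0-Medium and 8881, 14086 and 18310.1 in S1 (1.32 ± 0.40, adjusted p = 0.0372 with the block). Rhag and Cd24a were higher without overlap at 0.81 ± 0.29 and 1.58 ± 0.45 but did not pass (adjusted p = 0.248 and 0.0683 with the block). Car1, carbonic anhydrase 1, was lower without overlap, at 1052, 1127 and 2533 in S0-Medium and 488, 397 and 673 in S1 (-1.60 ± 0.61, adjusted p = 0.253), whereas Car2 was at 0.93 ± 0.63. Aqp1, a water channel, showed how far replicate 3 could stand apart, with 398, 505 and 8776 in S0-Medium and 715, 669.7 and 11206 in S1.

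The other genes that rose are less specific to hemoglobin or membrane. Trim10, a RING-finger gene known from red cell maturation, held 392, 512 and 775 in S0-Medium and 1656, 2175 and 6712 in S1 (2.65 ± 0.75, adjusted p = 0.0387 with the block). Hemgn, hemogen, a nuclear protein of erythroid cells, held 2366, 4001 and 15488 in S0-Medium and 9138, 13324 and 46213 in S1. Its log2 difference was 1.65 ± 0.85 in the fit without the block, and its adjusted p was 0.0156 in the fit with it. The groups overlapped, with ratios of 3.86, 3.33 and 2.98 in pairs 1 to 3. Gadd45a, a growth arrest and DNA damage gene, behaved likewise, with ratios of 2.96, 2.34 and 1.85 and a log2 difference of 1.09 ± 0.63 (adjusted p = 0.0196). Blvrb, a biliverdin reductase abundant in red cells, had the smallest of the 28 rises, 1.00 ± 0.48 (adjusted p = 0.0387). Dusp8, a phosphatase that acts on MAP kinases, held only 84.5, 132 and 51.5 in S0-Medium and 434, 674 and 1502 in S1 (3.28 ± 0.69, adjusted p = 0.0349). Camsap2, which binds microtubule minus ends, had even S1 libraries, with 2765, 3139 and 938 in S0-Medium and 8402, 9009.5 and 9279 in S1 (1.96 ± 0.39, adjusted p = 0.0472). Wipi1, which binds phosphoinositides on forming autophagosomes, rose by 1.34, with overlapping groups. Fhdc1, Grina, Rab3il1, Acp1, Tnfrsf14, Tmcc2, Slfn14, Mtfr1, Evi5 and ENSMUSG00000096982, which has no symbol, also rose. Their log2 differences ran from 1.31 for Tmcc2 and Acp1 to 2.48 for Fhdc1.

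Of the 29 genes that fell, 12 are on any of the 30 lists. All 12 are on those of stem and progenitor factors, progenitor receptors, leukocyte signalling and granulocyte markers, which hold 86 of the tested genes (0.519%). These lists were picked with the results known, so that the share is a description and not a test. The 29 falls had a median log2 difference of -4.72 against 1.66 for the rises. Meis1, a homeodomain factor of stem and progenitor cells, held 7072, 1349.7 and 2216 in S0-Medium and 354, 187 and 135 in S1. Its log2 difference was -3.97 ± 0.85 (adjusted p = 0.0318 with the block, 0.133 without it), and S0-Medium replicate 1 was several times above replicates 2 and 3. Erg, an ETS factor of stem cells, held 808, 128 and 599 in S0-Medium and 3.07, 10.2 and 16.2 in S1 (-5.70 ± 0.99, adjusted p = 0.0318). Of 25 tested stem and progenitor transcription factors 3 fell and 0 rose against 0.175% and 0.169% of all tested genes, and 14 were lower without overlap against a background of 10.2%. The list's median was -3.28, or -2.70 with the 2 tested genes that had no count in S1 set at their bound.

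Several factors of the same list did not pass but lay lower in every S1 library. Hoxa9, a homeobox gene of early progenitors, held 100.0, 40.2 and 11.5 in S0-Medium and 0 in all 3 S1 libraries, which makes it at least 19.7-fold lower (floor of 3 counts a library). Fli1, Mycn and Ikzf2 were at -3.67 ± 1.05, -3.87 ± 0.95 and -3.85 ± 1.19 with adjusted p of 0.0837, 0.0776 and 0.218 under the block. Myb, which drives progenitor growth, held 17695, 17335 and 29322 in S0-Medium and 8289, 7975 and 7305 in S1, a smaller difference of -1.45 ± 0.47 (adjusted p = 0.238). Spi1, encoding the myeloid and lymphoid factor PU.1, held 962, 435 and 321 in S0-Medium and 161, 189.7 and 23.3 in S1 (-2.20 ± 1.09, adjusted p = 0.469). Runx1, with 64868, 14413 and 33189 in S0-Medium and 18137, 9506 and 12176 in S1, overlapped between the populations. Cebpb and Lmo4 went against the list at 0.67 ± 0.50 and 0.09 ± 0.55, neither past the test, and Bcl6 at 0.79 ± 1.17 had a single high S1 library.

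No gene on the list of erythroid transcription factors and cofactors passed in either direction, and few genes of any kind did. Gata1, the master erythroid factor, held 4028, 5224 and 7787 in S0-Medium and 5622, 6259.8 and 11351 in S1 (0.45 ± 0.40, adjusted p = 0.626 with the block). Klf1, which activates beta-globin, was at 0.55 ± 0.50, Tal1 at 0.40 ± 0.34 and Gfi1b at 0.16 ± 0.50. Of 23 tested erythroid factors and cofactors 0 rose and 0 fell under the block, against 0.169% and 0.175% of all tested genes, and the median was 0.20. Without overlap, 1 was higher and 2 were lower (4.35% and 8.70%, against 6.86% and 10.2% of all tested genes). E2f2, a cell cycle factor needed at the last divisions, was higher without overlap, with 2771, 2377 and 2209.7 in S0-Medium and 4315, 4134 and 11852 in S1 (1.46 ± 0.52, adjusted p = 0.256). Cbfa2t3, encoding the co-repressor ETO2, and Stat5a were lower without overlap, at -1.16 ± 0.36 and -0.67 ± 0.56, and did not pass (adjusted p = 0.0912 and 0.862). Sox6, a repressor of embryonic globin, and Klf3 were higher within each pair at 1.48 ± 0.72 and 1.19 ± 0.72 but overlapped between populations. Zfpm1, a GATA1 cofactor, is listed at 0 in all 18 libraries.

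Among receptors and surface proteins of progenitors, Cd34 and Csf1r fell. Cd34, a surface marker of stem and progenitor cells, held 717, 138 and 150.0 in S0-Medium and 3.84, 1.57 and 9.10 in S1 (-6.11 ± 1.00, adjusted p = 0.0214 with the block). Csf1r, the macrophage growth factor receptor, held 757, 126 and 146 in S0-Medium and 0.769, 3.93 and 0 in S1 (-7.62 ± 1.23, adjusted p = 0.0349). They were the 2 falls among 25 tested cytokine receptors and progenitor surface proteins, with 0 rises against a background of 0.175% and 0.169%, 14 lower without overlap against 10.2%, and a median of -1.28. Flt3 and Csf3r, receptors of multipotent and granulocyte progenitors, were lower without overlap at -6.12 ± 1.51 and -6.17 ± 1.27, and missed the threshold with the block at adjusted p = 0.0651 and 0.0788. Kit, the stem cell factor receptor on which early erythroid cells depend, held 11989, 10184 and 18615 in S0-Medium and 7595, 7269 and 4853 in S1, lower without overlap but by a modest -1.05 ± 0.89 (adjusted p = 0.827). Epor, the erythropoietin receptor, was at 0.46 ± 0.52 with overlapping groups.

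No gene on the erythropoietin pathway list passed, and over all tested genes only 0.169% rose and 0.175% fell. Of 22 tested genes 0 rose, 0 fell, 1 was higher and 4 were lower without overlap (4.55% and 18.2%, against 6.86% and 10.2% of all tested genes), and the median was 0.34. Gab1, an adaptor of the receptor, was the 1 higher gene at 0.86 ± 0.33, while the phosphatase Ptpn6 and the kinase Lyn, which restrain signalling in many blood cells, were lower without overlap at -1.62 ± 0.75 and -1.51 ± 1.11 and did not pass (adjusted p = 0.258, 0.402 and 0.837 with the block). Cish, a direct target of STAT5, held 2952, 3538 and 119 in S0-Medium and 3723, 5038 and 151 in S1. It was low in replicate 3 of both populations, as were Socs1, Socs2, Socs3 and Podxl, so that the replicates differed far more than the populations. Of 11 tested genes of BFU-E self-renewal and the glucocorticoid response, BFU-E being the earliest committed erythroid progenitor, 0 rose and 0 fell against the same 0.169% and 0.175%, and the median was -0.23. Without overlap, 1 was higher and 2 were lower (9.09% and 18.2%, against 6.86% and 10.2% of all tested genes). Zfp36l2 and Zbtb16, 2 genes of that list, were lower without overlap at -0.71 ± 0.32 and -2.46 ± 0.74, Dusp1 was higher at 1.62 ± 0.57, and the glucocorticoid receptor Nr3c1 was at -0.23 ± 0.37.

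Genes of leukocyte signalling and cytoskeleton held more of the falls than any other list. Of 29 tested members 6 fell and 0 rose against 0.175% and 0.169% of all tested genes, 24 were lower without overlap against a background of 10.2%, and the median was -2.54. Their summed levels were 42646 to 91689 in the S0-Medium libraries and 15735 to 20285 in the S1 libraries. Ptprc, the leukocyte common antigen CD45, held 1649, 360.0 and 196 in S0-Medium and 27.7, 20.5 and 23.3 in S1 (-4.94 ± 0.87, adjusted p = 0.0342 with the block). Dock2, which activates Rac in migrating leukocytes, held 19528, 5103 and 7636 in S0-Medium and 2228, 1415 and 1187 in S1 (-2.74 ± 0.57, adjusted p = 0.0137). Plcg2, a phospholipase downstream of immune receptors, held 7308, 2626 and 1261 in S0-Medium and 644, 526 and 268 in S1 (-2.96 ± 0.59, adjusted p = 0.0137). Replicate 1 was the highest S0-Medium library for all 3 of these genes. Plek, Tespa1 and Lcp1, the first encoding pleckstrin and the last the actin-bundling protein L-plastin, fell too, with log2 differences of -4.12 ± 0.94, -5.33 ± 1.04 and -2.31 ± 0.77, and Lcp1 alone of the 29 falls had overlapping groups. Rac2, Btk and Inpp5d, also genes of blood cell signalling, were at -0.21 ± 0.45, -0.45 ± 1.04 and -1.04 ± 0.89 and did not pass.

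Of the remaining falls, Mpo is the 1 that is on a list. Mpo, myeloperoxidase of granulocyte precursors, held 4914, 700.2 and 264 in S0-Medium and 36.1, 17.3 and 16.2 in S1 (-6.38 ± 1.16, adjusted p = 0.0196 with the block). Ccl9, a chemokine, held 139.5, 42.4 and 96.8 and Gpr171, a G protein-coupled receptor, 176, 67.1 and 107 in S0-Medium, and both had 0 counts in all 3 S1 libraries. Against the floor of 3 counts a library, Ccl9 was at least 36.2-fold and Gpr171 at least 45.5-fold lower. Prkg1, a cGMP-dependent kinase, was abundant in S0-Medium at 27414, 5956 and 12572 and held 437, 946 and 899.9 in S1 (-4.33 ± 0.73, adjusted p = 0.0236). Muc13, a membrane mucin, had even S0-Medium libraries, at 3592, 3572 and 4415 against 214, 474 and 421 in S1 (-3.38 ± 0.67, adjusted p = 0.0285). Celf2, which regulates splicing, and Med12l, a Mediator subunit, fell as well, at -3.71 ± 0.72 and -4.96 ± 0.82. Prkca, Slc24a3, Coro2a, Nfam1, Il12a, F630028O10Rik, Cyth4, Gmfg, Wdfy4, Abr and Tifab fell too, between -2.53 for Prkca and -6.98 for Nfam1.

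Among markers of other lineages, Mpo and Csf1r fell and none rose. The antibodies that marked lineage-positive cells in the sort were against CD41, CD45R, CD3e, CD11b and Ly-6G/6C, and Cd3e and Ly6g were at 0 in all 6 libraries while Itga2b, which encodes CD41, held 4087, 2097 and 1949 in S0-Medium and 389, 551 and 438 in S1 (-2.56 ± 0.64, adjusted p = 0.0776 with the block). Of 18 tested megakaryocyte and platelet markers 0 passed, 11 were lower without overlap against 10.2% of all tested genes and the median was -2.40, with summed levels of 14379 to 22813 in the S0-Medium libraries and 4643 to 7847 in the S1 libraries. Pf4, platelet factor 4, held 132, 145 and 592 in S0-Medium and 11.5, 9.44 and 29.3 in S1, whereas Vwf, with 1222, 486 and 2792 in S0-Medium and 683, 502 and 2733 in S1, did not separate the populations, and Ppbp and Gp1bb were at 0 in S1. Of 8 tested mast cell and basophil markers of 15 matched, 0 passed and 3 were lower without overlap against 10.2% (median -3.92, -3.27 with the gene at 0 in S1 at its bound), their sum was 1392 to 2846 in the S0-Medium libraries and 678 to 1163 in the S1 libraries, and Fcer1a, Mcpt4, Tpsb2, Tpsab1 and Prss34 were at 0 in all 6 libraries. The part of such cells in the other differences was not tested.

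Of 8 tested neutrophil and granulocyte precursor markers 1, Mpo, fell and 3 were lower without overlap, against 0.175% and 10.2% of all tested genes, and the median was -4.55 (-3.73 at the bound), with sums of 347 to 5407 in the S0-Medium libraries and 29.3 to 63.8 in the S1 libraries, while Lcn2, Retnlg and Ly6g were at 0 in all 6 libraries. Of 11 tested macrophage and monocyte markers 1, Csf1r, fell and 5 were lower without overlap, against the same shares, and the median was -2.72. Their sum, 2167 to 3751 in the S0-Medium libraries and 2680.2 to 5101 in the S1 libraries, was carried by Slc40a1, the iron exporter ferroportin, which erythroid cells also express, and C1qa, Cd163 and Cd5l were at 0 in all 6 libraries. Of 10 tested lymphoid markers 0 passed, 5 were lower without overlap against 10.2% of all tested genes and the median was -3.96 (-3.28 at the bound), with sums of 157 to 1236 in the S0-Medium libraries and 29.1 to 88.4 in the S1 libraries. Cd3e, Rag1 and Cd2 were at 0 in all 6 libraries, and Dntt, Vpreb2, Cd7, Ms4a1, Ncr1 and Klrd1 in the S1 libraries. Of 10 tested hepatocyte and endothelial markers 0 passed, 1 was higher and 2 were lower without overlap against 6.86% and 10.2% of all tested genes, the median was -1.40, and the sums were 1112 to 2428 in the S0-Medium libraries and 483 to 696 in the S1 libraries. Alb, albumin, an abundant transcript of hepatocytes, reached at most 63.0 normalised counts in any of the 6 libraries.

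Of 15 tested integrins and adhesion genes 0 passed, 7 were lower without overlap against 10.2% of all tested genes and the median was -1.05. Itgb3, which pairs with the product of Itga2b on platelets, held 5057, 2019 and 672 in S0-Medium and 96.8, 183 and 145 in S1 (-4.19 ± 1.47, adjusted p = 0.354 with the block). Itga4 and Itgb1, the pair with which erythroid cells bind the macrophage of the erythroblastic island, were at -0.14 ± 0.46 and 0.29 ± 0.37, and neither passed. Icam4, a ligand on erythroid cells, was at 1.02 ± 0.55 and higher within each pair.

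**Figure D3:**
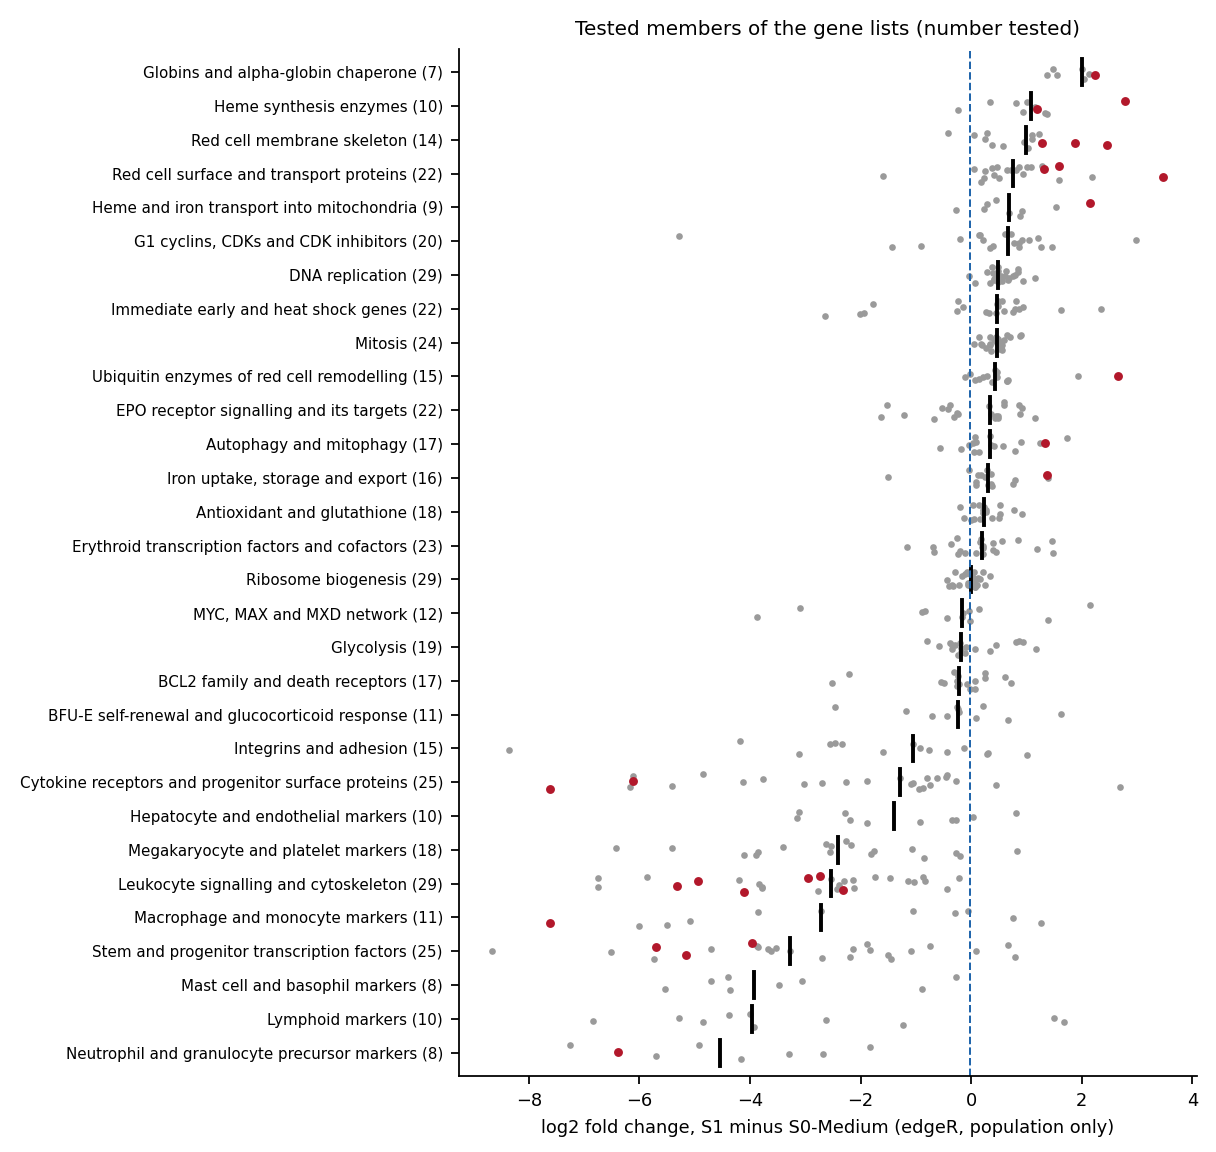
Log2 difference, S1 minus S0-Medium, of each tested member of the 30 gene lists (points) with each list's median (bar), the number tested in brackets and genes that passed with the replicate block in red. Globin, heme and membrane skeleton lists lie to the right of the median of all genes at -0.02, and stem factor, leukocyte, megakaryocyte and neutrophil lists to the left.

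The DNA replication and mitosis lists had positive medians, but no single gene of either list passed. Of 29 tested DNA replication genes 0 rose and 0 fell, 14 were higher without overlap and 0 lower against backgrounds of 6.86% and 10.2%, and the median was 0.49. Rrm2 and Rrm1, the subunits of ribonucleotide reductase that supplies deoxynucleotides, were at 1.15 ± 0.40 and 0.85 ± 0.30, Pcna, the sliding clamp of the polymerases, at 0.84 ± 0.36 and Mcm4 of the replicative helicase at 0.69 ± 0.28 (adjusted p = 0.164, 0.124, 0.205 and 0.235 with the block). Of 24 tested mitosis genes 0 rose and 0 fell, 11 were higher without overlap and the median was 0.46. All 24 were higher in S1 in each of the 3 pairs. Ccna2, cyclin A2, held 4257, 7276 and 6349 in S0-Medium and 9092, 9936 and 13989.7 in S1 (0.88 ± 0.36, adjusted p = 0.183). With libraries scaled by their totals the medians of these lists were 0.35 and 0.31.

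Of 20 tested cyclins, CDKs, inhibitors and E2F factors 0 rose and 0 fell, 7 were higher and 2 lower without overlap against 6.86% and 10.2% of all tested genes, and the median was 0.67. Ccnd1, cyclin D1, held 313, 164 and 61.3 in S0-Medium and 4.61, 8.66 and 0 in S1 (-5.28 ± 1.88, adjusted p = 0.201 with the block), while Ccne2, cyclin E2, held 2279, 3928 and 1752 in S0-Medium and 5041, 6415 and 7702 in S1 (1.27 ± 0.44, adjusted p = 0.178). Cdkn2c, the CDK inhibitor p18, held 55.7, 109 and 7.99 in S0-Medium and 232, 312 and 834 in S1 (2.98 ± 0.95, adjusted p = 0.227). Cdk6, a G1 kinase of progenitors, and Ccnd3, cyclin D3, took their differences of -0.90 ± 1.04 and 1.04 ± 0.61 mainly from replicate 3, where Cdk6 went from 13419 to 2877 and Ccnd3 from 6923 to 28204.

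Of 12 tested genes of the MYC, MAX and MXD network 0 rose and 0 fell, 2 (Myc and Mycn) were lower without overlap against 10.2% of all tested genes, and the median was -0.16. Mxd3, which pairs with MAX, was the highest of the list at 2.15 ± 0.84 and higher in S1 within each pair, with overlapping groups and an adjusted p of 0.0722 with the block. Myc, which drives growth and ribosome production, held 21649.5, 28092 and 23045 in S0-Medium and 14008, 18057 and 8859 in S1 (-0.83 ± 0.48, adjusted p = 0.251 with the block). Of 29 tested ribosome biogenesis genes 0 rose, 0 fell, 0 were apart between the populations and the median was 0.00, turning to -0.10 and -0.16 under the other scalings. In pair 1, 26 of 29 of these genes were higher in S1 with a median log2 ratio of 0.32, in pair 2 9 of 29 (-0.08) and in pair 3 1 of 29 (-0.57), so the populations could not be ranked. Of 19 tested glycolysis genes 0 rose and 0 fell against 0.169% and 0.175% of all tested genes, and the median was -0.19. Without overlap, 4 were higher (21.1%) and 0 lower, against 6.86% and 10.2% of all tested genes. Pklr and Bpgm, an erythroid and liver pyruvate kinase and the red cell bisphosphoglycerate mutase, were higher without overlap at 1.18 ± 0.50 and 0.94 ± 0.39 (adjusted p = 0.354 and 0.138), while Ldha and Pkm were at -0.30 ± 0.79 and -0.58 ± 0.71.

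**Figure D4:**
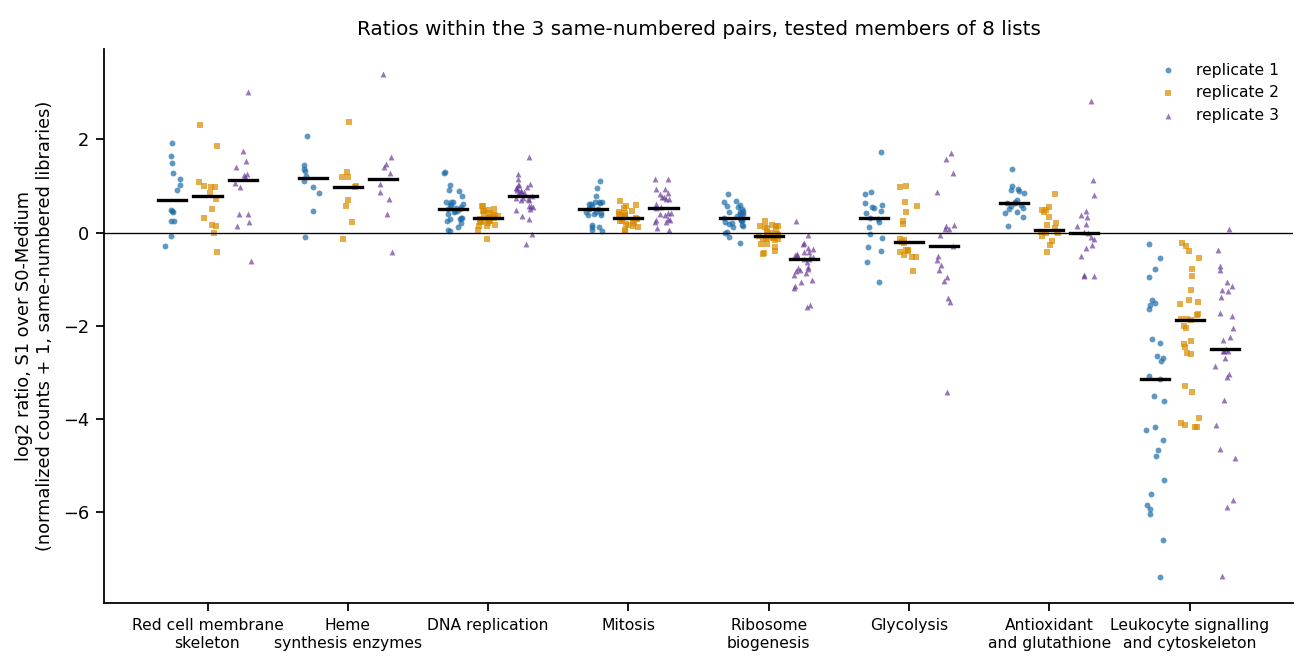
Log2 ratio of S1 to S0-Medium normalised counts (1 added to each) for each tested member of 8 gene lists (points, with the median as a bar), in replicate pairs 1, 2 and 3. Mitosis genes lie above 0 in every pair, and ribosome biogenesis genes pass from mostly above 0 in pair 1 to nearly all below it in pair 3.

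Other lists gave little that passed. Of 18 tested antioxidant and glutathione genes 0 rose and 0 fell, 3 were higher without overlap against 6.86% of all tested genes and the median was 0.23. Prdx2, a peroxiredoxin abundant in red cells, was at 0.93 ± 0.39 and Gclc, which starts glutathione synthesis, at 0.78 ± 0.33 (adjusted p = 0.0992 and 0.273 with the block). Of 17 tested autophagy and mitophagy genes 1, Wipi1, rose against a background of 0.169%, 0 fell, 0 were apart between the populations and the median was 0.33, and Bnip3l, needed to clear mitochondria from reticulocytes, was at 0.35 ± 0.53. Of 15 tested ubiquitin genes of red cell remodelling 1, Trim10, rose and 3 were higher without overlap, against 0.169% and 6.86% of all tested genes, and the median was 0.42. Ube2l6, an E2 enzyme of that list, was at 1.93 ± 0.76 (adjusted p = 0.301). Of 17 tested genes of the BCL2 family and death receptors 0 rose and 0 fell against 0.169% and 0.175% of all tested genes, 0 were apart between the populations and the median was -0.22. Bcl2 held 3722, 889 and 507 in S0-Medium and 509.6, 319.5 and 60.7 in S1, and Bcl2l1, the survival gene of erythroid cells, was at -0.24 ± 0.38. Of 22 tested immediate early and heat shock genes, which respond within minutes to handling or to stimuli, 0 rose, 0 fell, 2 were higher and 1 was lower without overlap (9.09% and 4.55%, against 6.86% and 10.2% of all tested genes) and the median was 0.47. Btg2, an antiproliferative gene of that list, held 369.9, 479 and 1157 in S0-Medium and 835, 1169 and 8177 in S1.

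For the lists in which no gene passed in edgeR with the block, the numbers higher and lower at an unadjusted p of 0.05 without the block were as follows, against a background of 1.68% and 5.18% of all tested genes. They were 1 and 1 for erythroid factors, 1 and 1 for erythropoietin signalling, 1 and 2 for BFU-E and glucocorticoid genes, 4 and 1 for G1 regulators, 5 and 0 for DNA replication, 1 and 0 for mitosis, 1 and 1 for the MYC network, 0 and 0 for ribosome biogenesis and 0 and 0 for the BCL2 family. They came to 2 and 0 for antioxidant genes, 2 and 0 for glycolysis, 0 and 6 for adhesion genes, 0 and 3 for mast cell markers, 0 and 8 for megakaryocyte markers, 0 and 6 for lymphoid markers, 0 and 2 for hepatocyte and endothelial markers and 3 and 0 for immediate early genes. DESeq2, with its own adjusted p under 0.05, called 0.199% as higher and 2.22% as lower of all tested genes, and it called 1 lower among BFU-E and glucocorticoid genes, 1 lower among the MYC network, 2 lower among adhesion genes, 3 lower among mast cell markers, 6 lower among megakaryocyte markers, 2 lower among lymphoid markers and 2 lower among hepatocyte and endothelial markers, and 0 in the other lists of this group. In the lists with a gene past the block, it called lower 10 of 25 stem factors, 8 of 25 progenitor receptors and 15 of 29 leukocyte genes. Macrophage markers had 2 lower and neutrophil markers 3. Called higher were 4 skeleton genes, 2 each of heme synthesis and red cell surface genes, and 1 each of mitochondrial transport, iron and ubiquitin genes. Globin and autophagy genes had 0.

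The largest differences among genes without overlap, at an unadjusted p under 0.05 and with a mean of at least 100 normalised counts in the higher population, took their highest value mostly from the same library in each direction. S1 replicate 3 was the highest library in each of the 15 largest upward ones, and S0-Medium replicate 1 in 13 of the 15 largest downward ones, all but Hdgfl3 and Mmrn1. Nacad held 2.82, 16.9 and 0 in S0-Medium and 31.5, 24.4 and 503 in S1 (4.78 ± 1.77), Adra2b, an adrenergic receptor, 28.9, 12.0 and 5.33 in S0-Medium and 103, 104 and 1079.9 in S1 (4.78 ± 1.43), and Ackr1, the Duffy blood group receptor, 9.16, 13.4 and 0 in S0-Medium and 63.8, 66.1 and 393 in S1 (4.49 ± 1.14). Of these 15, Slc4a1 and Dusp8 rose under the block and the other 13 did not pass it, of which 6 passed in DESeq2, Adra2b, Ackr1 and Slc2a4 among them. Slc2a4, an insulin-responsive glucose transporter, and Ypel4 were among the 13, at 4.41 ± 1.30 and 3.37 ± 1.10. Among the downward ones, Clec7a, a receptor of myeloid cells for fungal glucans, held 186, 34.6 and 105 in S0-Medium and 0 in S1, at least 42.3-fold lower. Serpinb1a, a protease inhibitor of granulocytes, held 248, 68.5 and 67.5 in S0-Medium and 0.769, 0.787 and 0 in S1, Ccr2, a chemokine receptor of monocytes, 272, 62.8 and 24.0 in S0-Medium and 0, 3.15 and 0 in S1, and Tox, a lymphoid nuclear factor, 2419, 118 and 157 in S0-Medium and 11.5, 9.44 and 5.06 in S1. Gpr171, Csf1r and Nfam1 fell under the block, and the other 12 of the 15 did not pass it, although all 12 passed in DESeq2 (adjusted p from 8.41e-07 to 0.0208).

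The populations on either side placed the step in a longer course, read from the same fit. S0-Low, Lin- and Ter119- cells whose CD71 the labels give as low in the name and negative in the markers, comes before S0-Medium, and S2 and S3, which stain high for CD71 and at a medium and a high level for Ter119, come after S1. In the order of maturation, from the CD71-low cells to S3, the means ± SD over 3 libraries of Alas2 were 145 ± 22.6, 547 ± 46.1, 3742 ± 2269.8, 13379 ± 8876 and 103511 ± 22653. Slc4a1 went through 446 ± 215, 1896 ± 393, 21018 ± 20751, 74393 ± 56181 and 472379 ± 154160.0, and Tfrc through 11081 ± 2347, 19938 ± 3766, 51533 ± 7580.1, 81544 ± 26838 and 201858 ± 8959. Each of the 3 genes was lowest in S0-Low and highest in S3, with the populations compared here between. Gata2 had means of 7214 ± 1925, 3768 ± 1438, 388 ± 127, 68.0 ± 46.2 and 72.9 ± 124, and Meis1 of 7847 ± 2758, 3546 ± 3084, 226 ± 114, 40.1 ± 29.3 and 36.2 ± 30.3. Cd34 went from 3360.0 ± 1067 in S0-Low through 335 ± 331 and 4.84 ± 3.86 to 0.462 ± 0.800 in S2 and 1.37 ± 2.37 in S3. The steps on either side share the S0-Medium or the S1 libraries with this one.

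No gene could be called particular to the step from S0-Medium to S1. The difference between this step and the step from S0-Low to S0-Medium was tested in edgeR, and 0 of 16555 genes passed an adjusted p of 0.05, without or with the block, with 183 at an unadjusted p of 0.05. Against the step from S1 to S2, 0 passed in either fit and 124 were under an unadjusted 0.05. DESeq2 was not run on these differences. The biological coefficient of variation was 0.795 without and 0.697 with the block.

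**Figure D5:**
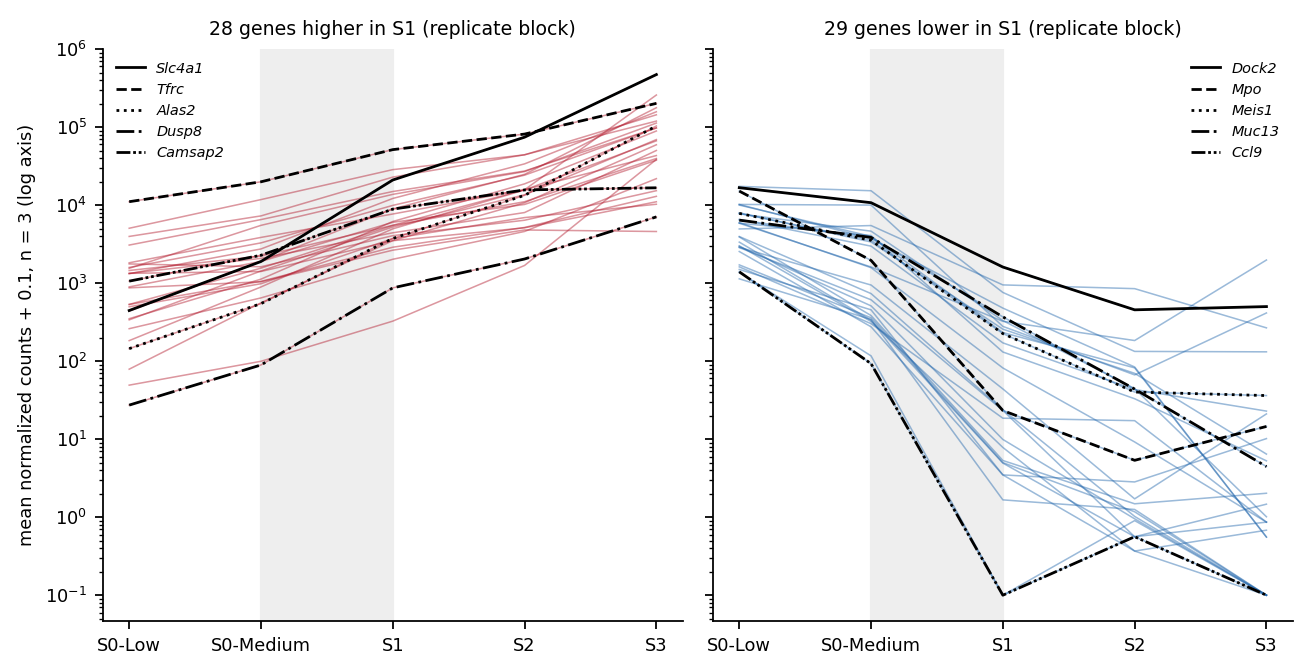
Mean normalised counts (log axis) in the 5 erythroid populations in order of maturation, with 1 line a gene for the 28 that rose (left) and the 29 that fell (right), with 0.1 added for the log axis, 5 genes a panel drawn in black and the step from S0-Medium to S1 shaded. Slc4a1, Tfrc and Alas2 climb through all populations to S3, and Meis1 and Ccl9 drop from S0-Low to S0-Medium and again from S0-Medium to S1.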

How the data were processed

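Nascent RNA was measured by 4sU sequencing of sorted fetal liver cells, in stranded total RNA libraries with 14 PCR cycles and no molecular identifiers. The authors deposited 1 table of estimated counts per gene for 18 libraries, made with kallisto 0.43.0 on GRCm38 per the submitters' processing notes. The transcript set and the strand setting are not given in the sources used here, so that overlapping genes may share reads. The deposited estimated counts were already whole numbers. Symbols were matched for 32651 of 54232 identifiers, which hold 98.66% of the counts, and coordinates are those of RefSeq on GRCm38.p6.

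The 15 erythroid libraries were fitted together with edgeR 4.0.16 in R 4.3.3 (TMM scaling, filterByExpr, quasi-likelihood test, two-sided, Benjamini-Hochberg over 16555 genes, threshold 0.05), with population as the only term. DESeq2 1.42.0 was an alternative. Normalised counts are counts divided by the TMM effective library size and multiplied by its mean over the 15 libraries. The same replicate numbers occur in each population, but the labels do not say what a shared number stands for. Deviations from the population mean correlated across genes at 0.469, 0.555 and 0.545 for same-numbered S1 and S0-Medium libraries, and between -0.482 and 0.13 for other pairs. The fit with the replicate number as a block is therefore given beside each result it changes. For single genes only its adjusted p is given, and the log2 differences and SE are those of the fit without the block. Floors of 3 counts cover counting error only, and replicates differed by far more than counting error.

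The members and the 30 gene lists (570 of 577 entries matched) were chosen with earlier results of these data known, and lists share some members. Genes were named as Tfrc, Gata2 and list members, as the 15 largest differences in each direction without overlap, at an unadjusted p under 0.05 and a mean of at least 100, and as the 15 with the smallest adjusted p in each direction under the block. The other genes past the block were named after their values were seen.

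Alternatives were the block, DESeq2, 2 other scalings, other filters, only the 6 libraries compared, robust empirical Bayes and leaving out each library. Leaving out each library in the blocked fit was chosen after seeing the data. The lineage-positive libraries were not used here. Some genes with results are not reported here by name, and they remain in the counts and medians.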

Additional observations from a re-analysis of the deposited data

How the results depend on the processing

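All values here are numbers of genes, higher and lower in S1. With the replicate block 28 and 29 passed an adjusted p of 0.05 where 0 and 0 did without it. DESeq2 called 33 and 368, DESeq2 with the replicate block 164 and 455, edgeR on only the 6 libraries compared with the replicate block 311 and 630, and edgeR with no filter on low counts 82 and 245. The other scalings, the stricter filter, robust empirical Bayes, only the 6 libraries without a block, and leaving out any 1 library without a block gave 0 and 0. With the replicate block and 1 library left out, they were 4 and 5, 1 and 16, and 6 and 14 without S0-Medium replicates 1 to 3, and 1 and 0, 9 and 8, and 0 and 0 without S1 replicates 1 to 3. Of the 57 genes that passed with the block, all kept their direction under every alternative that tested them, 37 passed in DESeq2 and 57 in DESeq2 with the block. The causes of these changes were not tested.

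At an unadjusted p of 0.05, 278 were higher and 857 lower. The replicate block gave 638 higher, DESeq2 with the replicate block 557 and 1287, only the 6 libraries compared 433 higher, the same with the replicate block 1460 and 1881, library totals 176 higher, no filter 496 and 1316, and a minimum of 10 counts in every one of the 6 libraries 333 lower, with fewer genes tested. Leaving out 1 library gave 108 to 288 higher and 432 to 1009 lower without the block, and with it 358 to 551 higher (477 and 435 without S0-Medium replicates 1 and 2) and 519 to 1050 lower (561 without S1 replicate 1). Genes without overlap numbered 1136 higher, and 583 with library totals. Both differences between steps stayed at 0 with the block.

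The median of the ribosome biogenesis genes changed sign under RLE factors (-0.10) and library totals (-0.16). Those of the other lists kept theirs under both. Over all alternatives 24 of the 30 lists kept the sign of their median, and ribosome biogenesis, erythroid factors, erythropoietin signalling, autophagy, the BCL2 family and glycolysis did not. The smallest of these libraries held 27734246 counts, and genes with no count in S1 allow only a bound.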

Other observations

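Replicate 3 differed from replicates 1 and 2 in both populations. Podxl, a sialomucin, held 8932, 12126 and 952 normalised counts in S0-Medium and 13734, 12611 and 1193 in S1. Hk2, a hexokinase, held 3986, 3289 and 240 in S0-Medium and 1913, 2293 and 138 in S1, and Hspa8, a chaperone, was lowest in replicate 3 of both. Rhd, a blood group gene, went the other way, with 696, 774 and 5485 in S0-Medium and 2566, 2408 and 11842 in S1. What a shared replicate number stands for is not stated in the labels.

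Of 19726 protein-coding genes with a symbol, 2886 are listed at 0 in all 18 libraries. They include Zfpm1, Irf8, Cdt1, Map1lc3b and Rag1, and also Rpl13 and Cox4i1, a ribosomal protein and a respiratory chain subunit that every cell uses. A value of 0 in all libraries is therefore given only as listed at 0.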
